A study of Arabidopsis thaliana with 4 samples.

Results

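Retained introns over 250 bp were examined in a comparison of alternative splicing between the Arabidopsis thaliana ecotypes Col (Columbia) and Ler (Landsberg erecta). They were all intron retention events in which the interval between the flanking exon ends had the same length in both genomes and measured more than 250 bp. There were 1109 such introns in 794 genes, out of 14133 events of all types. Their lengths ran from 251 to 3412 bp with a median of 363 bp, and 254 of them (22.9%) were over 500 bp long. Events with a coordinate recorded as lost in one genome were left out. The rule used event type, coordinates and length, and no level or ecotype difference.

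Both groups were untreated 14-day-old seedlings grown on sugar-containing plates at 22 °C under short days (8 h light, 16 h dark), and polyadenylated RNA was sequenced in 2 samples of Col and 2 of Ler. As source tissue the labels give the first leaf, whereas their extraction text gives shoots. The table held no expression levels, so the tissue could not be checked against markers. The authors deposited 1 inclusion level per ecotype and event, pooled over its samples, so no level below has an SD or an n, the spread between samples is not shown and the sequencing depth is unknown.

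Removal of an intron joins 2 exons at a donor site, usually GT, and an acceptor site, usually AG. In plants intron retention is the most frequent form of alternative splicing, and a retained intron in a coding region often brings a stop codon that can expose the transcript to nonsense-mediated decay or keep it in the nucleus. Most Arabidopsis introns are short, and long introns are found more often near the start of a gene, where leader introns can also raise expression.

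The sequences of the introns that the results turn on are given first, from the RefSeq copy of TAIR10 (TAIR10.1), 5′ to 3′ on the strand of the gene. Each end is shown with 10 exon and 20 intron bases. Capitals mark the GT or AG at the intron's edge and, after a donor, the first in-frame stop codon where it falls within the bases shown. The 345 bp intron of AT1G15280, a CASC3/Barentsz protein of the exon junction complex, and the 486 bp leader intron of FLK, a KH-domain RNA-binding protein that promotes flowering, had levels near 26% in Col and at or under 1% in Ler. The 408 bp intron of NUDT7, a Nudix hydrolase that restrains defence, and the 261 bp intron of the PapD-like gene AT4G21450 were listed higher in Ler. An annotated exon lies inside the NUDT7 intron. SR30 encodes a serine/arginine-rich splicing factor and was the one such gene with a marked long intron.
AT1G15280 donor, chr1:5254827-5254856, plus strand: agatgacatgGTAAgctagctccttcccct
AT1G15280 acceptor, chr1:5255162-5255191, plus strand: tctctttatatgattggcAGgatgccagtt
FLK donor, chr3:1254749-1254778, minus strand: ctgataccacGTaatttcactgggttatct
FLK acceptor, chr3:1254273-1254302, minus strand: ggactctgaatttatgtcAGcgctctagtc
NUDT7 donor, chr4:7488436-7488465, plus strand: tatcaacgagGTgatttttacaTAAgattg
AT4G21450 donor, chr4:11427421-11427450, plus strand: gcctgagctgGTatgtTGAtcttctgatct
SR30 donor, chr1:2944149-2944178, minus strand: ctgtctcaagGTatgagtgtTAGatttgta

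AT1G14570, a UBX-domain protein gene, had 2 marked intervals that leave from 1 donor and end at different acceptors, and these moved in opposite directions between the ecotypes. The near acceptor closes an interval of 681 bp and the far acceptor one of 744 bp.
AT1G14570 shared donor, chr1:4984737-4984766, plus strand: tgtattatggGTtagtgtctttttcggtca
AT1G14570 near acceptor, chr1:4985408-4985437, plus strand: tcacttgcatttgtgattAGggctatgagg
AT1G14570 far acceptor, chr1:4985471-4985500, plus strand: attgctttccgtaacttcAGtgaagagcca

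A long intron can also carry another RNA. The 276 bp intron of DCL1, the Dicer-like enzyme that makes most plant miRNAs, holds the annotated gene of miR838, and it is shown whole with the mature miR838 (chr1:28635-28655) and the intron's edges in capitals.
DCL1 intron, chr1:28432-28707, plus strand: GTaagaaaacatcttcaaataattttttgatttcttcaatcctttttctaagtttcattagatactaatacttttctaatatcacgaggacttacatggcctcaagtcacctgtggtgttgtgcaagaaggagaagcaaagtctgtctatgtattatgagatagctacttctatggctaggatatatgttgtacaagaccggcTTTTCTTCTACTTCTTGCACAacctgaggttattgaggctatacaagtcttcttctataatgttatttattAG

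The listed levels spread over the whole range. The median was 50.7% in Col, with quartiles of 18.8% and 83.3%, and 53.3% in Ler, with quartiles of 18% and 84.6%. A listed level over 50% was found for 556 introns in Col (50.1%) and 568 in Ler (51.2%), and one over 90% for 198 in Col and 211 in Ler. Levels under 10% were listed for 81 introns in Col and 84 in Ler, and a level of 0 for 1 in Col and 3 in Ler. Equal-length introns of up to 250 bp had medians of 48.7% in Col and 49.6% in Ler, so the levels of the long introns lay close to those of the short ones.

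What a listed level stands for depended on the interval. Of the 1109 intervals, 680 equalled an intron of the RefSeq annotation, and the other 429 did not. Where only the spliced form is annotated (364 introns), the median level was 18.7% in Col and 19.5% in Ler. Where both forms are annotated (316 introns), the medians were 32.7% and 36.0%. Where neither form is annotated (316 intervals), they were 80% and 80.2%, and in the 113 intervals annotated as retained only they reached 90% and 90.9%. The order of the classes was the same in both ecotypes. A high level can therefore belong to an interval that other junctions usually cross, and then it does not give the fraction of mRNAs with the intron kept.

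**Figure D1:**
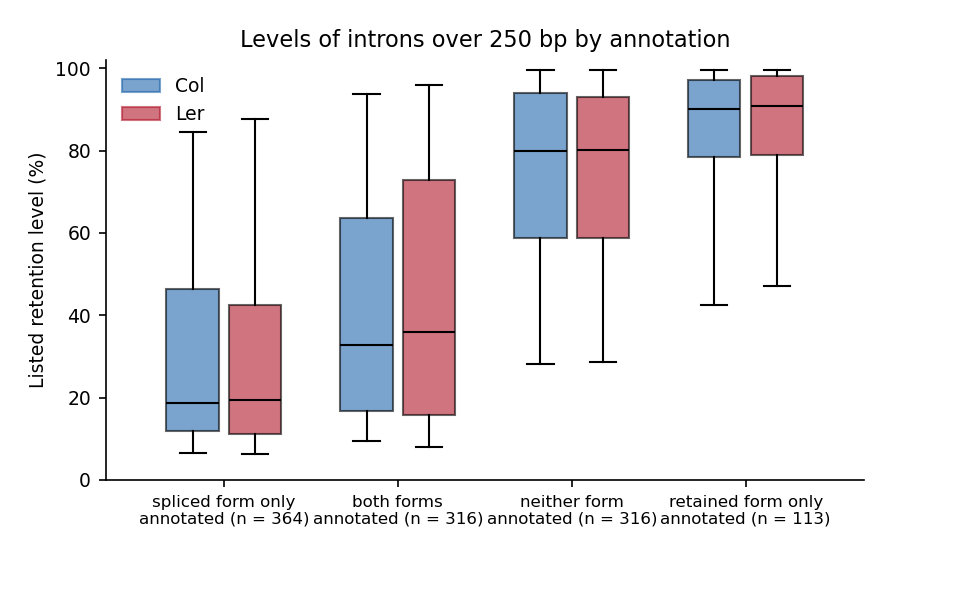
Listed retention level in percent (vertical axis) of introns over 250 bp in Col and Ler, by whether the annotation holds the spliced form, both forms, neither form or the retained form only; boxes span the quartiles with the median as a line, and whiskers run from the 5th to the 95th percentile. The medians in Col run from 18.7% for the spliced form only to 90% for the retained form only.

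Overlaps with other events of the same gene were frequent. A total of 754 long introns (68.0%) shared at least 1 end with another event, against 45.3% of the introns up to 250 bp. Of the long introns, 641 (57.8%) overlapped another retention event, against 37.0% of the shorter ones. An annotated exon of the same gene lay inside 234 of the long introns (21.1%), against 1.52% of the introns up to 250 bp, and these 234 had median levels of 66.7% in Col and 70.3% in Ler. Another annotated gene overlapped 126 of the long introns (11.4%), against 6.76% of the introns up to 250 bp. The 329 introns that shared no end and overlapped no other retention event, called stand-alone here, had medians of 21.7% and 23.4%. Of these, 246 equalled an annotated intron with no exon inside, and for them the level comes nearest to a plain share of retention. Their medians were 16.2% in Col and 15.2% in Ler, 37 were under 10% in Col and 44 over 50%. The 2110 short introns that met the same conditions had medians of 18.6% and 18.1%.

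Position within the gene was described against the annotated coding span. The coding span held 800 of the long introns (72.1%), the 5′ UTR side 179 (16.1%), the 3′ UTR side 67 (6.04%), and 56 crossed an edge of the coding span. Of the introns up to 250 bp, 9.25% lay on the 5′ UTR side. Among the 355 long introns that share no end with another event the share on the 5′ UTR side was 9.3%. The annotation shows the same direction without any retention data, since 14.5% of its introns over 250 bp and 3.48% of the shorter ones lie there. Among the 680 members that equalled an annotated intron, 149 (21.9%) were on the 5′ UTR side, a larger share than the annotation's 14.5%, and this difference was not tested. Of the 246 stand-alone members that equalled an annotated intron with no exon inside, 29 were on the 5′ UTR side. That share is smaller than the annotation's, so the direction depended on the overlapping events.

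First introns made up 334 of those 680 (49.1%), next to 46.6% of all annotated introns over 250 bp and 18.6% of the shorter ones. Their median level was 30.7% in Col and 31.5% in Ler, against 20% and 20.1% for later introns. Among introns up to 250 bp the medians were 34.1% and 35.6% for first introns and 19.1% and 18.7% for later ones, so first introns had the higher median in both length classes.

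For 427 long introns the coding sequence continued on both sides in an annotated transcript, so the reading frame could be followed into the intron. Median levels of these introns were 18.8% in Col and 17.8% in Ler. An in-frame stop codon was present in 424 of them (99.3%), against 2187 of 2608 introns up to 250 bp (83.9%). The first stop began at a median of 36 bases into the intron, with quartiles of 15.75 and 71.25, and it lay within the first 100 bases in 359 introns (84.1%). The latest first stop began at base 535. In the donors printed above, it begins at base 2 in AT1G15280, base 7 in AT4G21450, base 11 in SR30 and base 13 in NUDT7.

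The 3 introns without a stop were picked out after their values were seen. They lay in AT3G07930, a DNA glycosylase gene (348 bp, 93.6% in Col and 94.3% in Ler), in AT5G55670, which encodes an RRM-type RNA-binding protein (375 bp, 94.1% and 91.4%), and in AT4G11970, a YTH-domain gene (349 bp, 51.0% and 38.3%). In each of the 3 the annotation holds both the spliced and the retained form. A length that is a multiple of 3, which keeps the frame beyond the intron, was found in 150 of the 427 (35.1%).

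**Figure D2:**
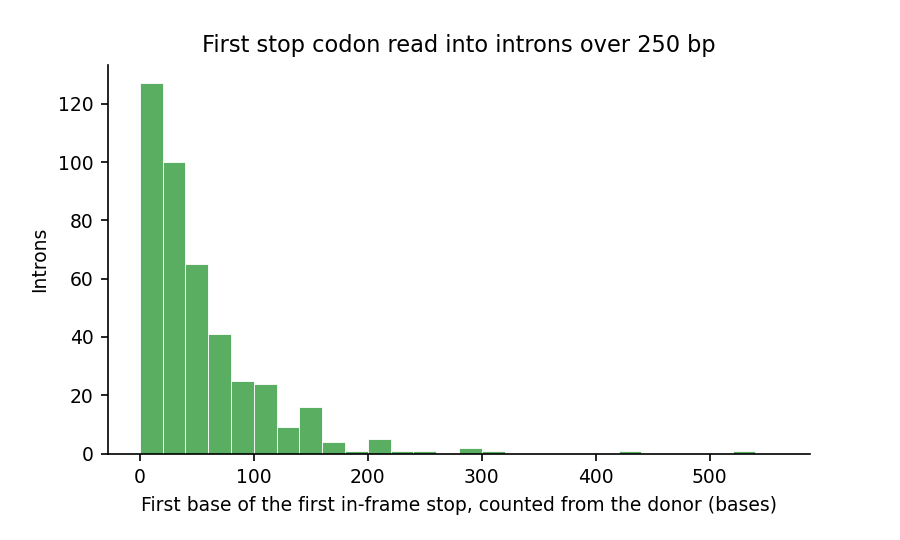
Position of the first in-frame stop codon in bases from the donor (horizontal axis) for introns over 250 bp with coding sequence on both sides, as a count of introns. The median is 36 bases, and 359 of 427 introns have their first stop within 100 bases.

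The long introns were poorer in G and C than the bases beside them, as were the introns up to 250 bp. Inside the interval the median GC content was 34.6%, against 44% in the 50 bases on either side, and it was lower inside in 1070 of the 1109 (96.5%). T made up a median of 39.3% of the bases. The ends were GT-AG in 1053 (95%), GC-AG in 21, AT-AC in 7 and CT-AC in 26. Introns up to 250 bp had a median GC content of 34.7% inside and 43% in the 50 bases on either side. It was lower inside in 91.3% of these shorter introns.

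The levels of Col and Ler lay close together across the long introns, as they did across the short introns and all events. As a description over the 1109 introns, which share libraries, the levels in Col and Ler had a Pearson's r of 0.927 and a Spearman's rho of 0.919. An intron differed by a median of 4.58 percentage points, and 584 introns (52.7%) differed by 5 points or less. Introns up to 250 bp had a Pearson's r of 0.920, a median of 4.81 points and 51.2% within 5 points. All 14133 events had 0.909, 3.78 points and 57.2%. Differences over 20 points were listed for 99 long introns (8.93%), beside 9.79% of all events. Differences over 50 points were listed for 9, beside 299 of all events. Whole shoots or leaves mix cell types, so a different share of cells and different splicing within cells cannot be told apart.

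**Figure D3:**
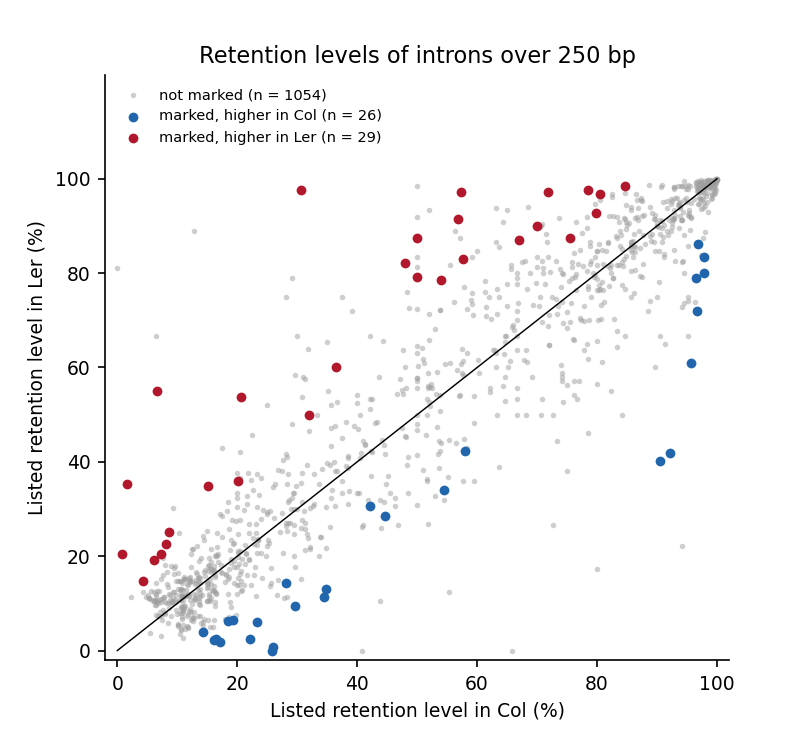
Listed retention level in Ler (vertical axis, percent) against Col (horizontal axis, percent) for the 1109 introns over 250 bp, with introns marked higher in Col, marked higher in Ler and unmarked in different colours. Most points lie near the diagonal (Pearson's r 0.927), and the marked introns differ by 10.4 to 66.9 points.

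The authors' deposited table marks 55 of the long introns (4.96%, 95% Wilson interval 3.83 to 6.4%) as differing between Col and Ler, in 50 genes. The background share of marked events was 7.46% over all 14133 events, 8.38% over all retention events and 6.81% over equal-length introns of up to 250 bp. The Wilson intervals cover the counting of events only, and a gene with several events enters several times. With q under 0.05 alone in the authors' deposited table there were 100 long introns (9.02%), beside 14.3% of all events, and 65 of these differed by at least 10 points, beside 8.41% of all events. By length, 6.43% of introns up to 85 bp were marked (5.27 to 7.83%), 7.43% of those of 86 to 110 bp (6.31 to 8.72%) and 6.54% of those of 111 to 250 bp (5.56 to 7.68%). The share of the long introns had the lowest value, its interval overlapped those of the 3 shorter classes, and the difference was not tested. Introns over 250 bp in Col that have another length in Ler, which are not members, were marked in 46 of 317 cases (14.5%, 11.1 to 18.8%).

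**Figure D4:**
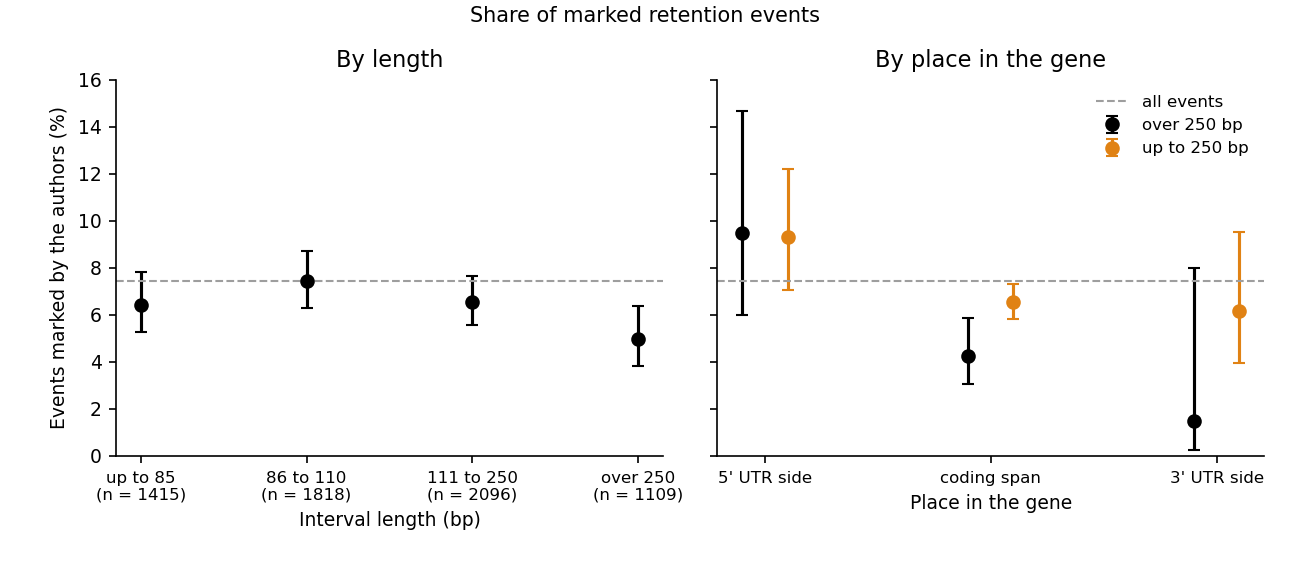
Share of introns marked as different between Col and Ler in percent (vertical axis) by length class (left) and by position for introns over and up to 250 bp (right), with 95% Wilson intervals as bars and all events (7.46%) as a dashed line. Introns over 250 bp stand at 4.96% and the 3 shorter classes between 6.43 and 7.43%. With all introns of a class counted, the 5′ UTR side has the highest share of the 3 positions in both length classes.

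Of the 1109 long introns, 26 were marked higher in Col and 29 higher in Ler. The background over all 14133 events was 577 marked higher in Col (4.08%) and 477 higher in Ler (3.38%). Absolute differences of the 55 marked long introns ran from 10.4 to 66.9 points with a median of 19.6. Among the stand-alone introns that equal an annotated intron with no exon inside, 10 of 246 were marked (4.07%), next to 171 of 2110 short introns under the same conditions (8.10%). The 5′ UTR side held 17 marked introns of 179 (9.50%, 6.01 to 14.7%), 7 higher in Col and 10 in Ler. In the coding span 34 of 800 were marked (4.25%, 3.06 to 5.88%), 17 in each direction, and on the 3′ UTR side 1 of 67. Among introns up to 250 bp the shares were 9.33% on the 5′ UTR side, 6.53% in the coding span and 6.16% on the 3′ UTR side. The 5′ UTR side thus had the highest share of these 3 positions in both length classes, which was not tested. Among stand-alone introns equal to an annotated intron with no exon inside, it was highest only in the long class. There 3 of 29 were marked on the 5′ UTR side and 5 of 188 in the coding span. In the short class under the same conditions the shares were 7.45% and 8.36%.

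The 13 marked introns that stand alone share no end with another event and overlap no other retention event of their gene. The term does not cover other genes, and the intervals in AT1G04030, AT3G01930 and AT3G60290 overlap another annotated gene. Of the 13, 5 were higher in Col. AT1G15280, whose Barentsz product is part of the complex that marks exon junctions, had 25.8% for its 345 bp sixth intron (chr1:5254837-5255181) in Col and was listed at 0 in Ler, with q = 1.85e-19 in the authors' deposited table. FLK had 25.9% in Col and 0.851% in Ler for its 486 bp first intron in the 5′ UTR (chr3:1254283-1254768), with q = 1.19e-18 in the authors' deposited table. Both introns were thus near 26% in Col and at or under 1% in Ler.

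AT3G01930, a major facilitator superfamily transporter gene, had 54.5% in Col and 34.1% in Ler for its 372 bp first intron. NADK1, which makes NADP from NAD, had 19.3% and 6.54% for a 267 bp intron. LOG1, a cytokinin-activating enzyme, had 18.5% and 6.18% for a 695 bp intron. The reading frame met a stop at base 79 in AT3G01930, base 35 in NADK1 and base 85 in LOG1.

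The other 8 of the 13 were higher in Ler. XXT4, of the xyloglucan xylosyltransferase family, had 57.3% in Col and 97.2% in Ler for a 493 bp interval ahead of the coding span (chr1:6434417-6434909), the widest gap among these 13 introns. FBW2, an F-box protein that acts on ARGONAUTE1, had 15.1% and 34.8% for its 497 bp leader intron. An annotated exon of FBW2 lies inside that intron, so its level is further from a plain share of retention. A 284 bp interval in AT3G60290, a 2-oxoglutarate-dependent oxygenase gene, had 78.6% and 97.6%, and its ends read CT-AC on the strand of the gene.

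Most of the remaining ones were low in Col and between 19 and 26% in Ler. AT4G21450 had 8.61% in Col and 25.2% in Ler (261 bp), with q = 2.39e-15 in the authors' deposited table. NUDT7 had 8.09% and 22.6% (408 bp), and its retained form meets a stop at base 13. An annotated exon of NUDT7 lies inside this interval, so its level is further from a plain share of retention. BT4, a BTB and TAZ domain protein, had 6.06% and 19.3% for a 279 bp intron that crosses the edge of the coding span. AT1G69340, a gene of the appr-1-p processing family, had 7.33% and 20.4% for its 339 bp first intron on the 5′ UTR side, and AT1G04030 had 79.8% and 92.8% for a 252 bp intron on the 3′ UTR side.

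The other 42 marked introns share an end with other events of their gene, some of which were marked too. In AT1G14570 the 744 bp interval to the far acceptor was listed at 90.6% in Col and 40.2% in Ler, and the 681 bp interval to the near acceptor at 6.55% and 55.0%. The alternative acceptor event between these sites, a step of 63 bases whose level counts the longer exon, had 93.2% and 26.0% and was marked higher in Col. By that event the near acceptor printed above was the main one in Col and the far acceptor the main one in Ler.

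AT5G22210, which encodes a subunit of an organellar tRNA amidotransferase, had the widest gap of all marked members, 30.6% in Col and 97.6% in Ler for a 665 bp leader interval (chr5:7358884-7359548). An acceptor event 21 bases apart in the same interval was listed at 0 in Col and 99.6% in Ler, so the listed acceptors differed there as well. AT5G54660, an HSP20-like chaperone gene, had 95.7% in Col and 60.9% in Ler for a 481 bp interval. A 458 bp interval of AT5G54660 inside it had 21.1% and 29.7% without a mark, and the acceptor event between them, a step of 23 bases, was marked with 98.4% and 75.3%. By that event the 481 bp junction was the minor one in both ecotypes.

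GGT1, the photorespiratory glutamate:glyoxylate aminotransferase of leaf peroxisomes, had 92.1% in Col and 41.9% in Ler for a 270 bp interval on the 5′ UTR side. The acceptor event of GGT1 that shares its donor differs by a step of 2 bases and was listed at 99.99% and 99.8%, so the 270 bp junction was the minor one in both ecotypes. AT2G46550 had 96.7% and 71.9% for 521 bp and 97.9% and 83.5% for 544 bp. These intervals of AT2G46550 overlap and are not independent. An acceptor event between the 544 bp junction and one of 519 bp was listed at 99.7% and 96.4%. In that event the 544 bp junction was the minor one in both ecotypes.

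Other introns higher in Col had lower levels. AT5G22040, a ubiquitin carboxyl-terminal hydrolase gene, had 34.5% in Col and 11.4% in Ler (608 bp, first intron, 5′ UTR side). AT1G53780, of a proteasome ATPase, had 34.8% and 13% (334 bp, first intron, 5′ UTR side). AT2G31810, the small subunit of acetolactate synthase, had 29.7% and 9.47% (293 bp). The cyclic nucleotide-gated channel gene CNGC6 had 22.1% and 2.40% (347 bp, first intron, 5′ UTR side), and an acceptor event of CNGC6 that shares its donor, a step of 9 bases, was marked higher in Ler with 54.9% and 89.6%. All 4 had under 14% in Ler, and 3 of them lie in front of the start codon.

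On the Ler side, first introns ahead of the coding sequence were again present. EMB2820, a deaminase family gene, had 1.67% in Col and 35.3% in Ler (299 bp), and events of EMB2820 with shared ends were marked higher in Col, a donor event with 99.8% and 84.2% and an acceptor event with 99.7% and 78.7%. QQT2, a nucleotide-binding hydrolase, had 0.769% and 20.5% (415 bp), and a donor event of QQT2 that ends at the same acceptor was marked with 1.53% and 22.5%. TMT2, a sugar carrier of the vacuolar membrane, had 48.1% and 82.1% for a 257 bp interval and 20.1% and 36.0% for a 446 bp interval with the same acceptor. TMT2 and AT2G17033 held the most long introns of any gene, 6 each, and 2 of the 6 were marked in each gene.

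Further introns higher in Ler lay in the coding span. GC1, a guanylyl cyclase gene, had 20.7% in Col and 53.7% in Ler for 272 bp and 4.21% and 14.7% for 267 bp, and an acceptor event of GC1 at the same donor was marked, listed at 0 in Col and 26.5% in Ler. AT2G29340, an epimerase family gene, had 56.8% and 91.4% (562 bp), and PFA-DSP3, a tyrosine phosphatase gene, had 50% and 87.5% (316 bp). AT3G59300, of the pentatricopeptide repeat family, had 50% and 79.2% (409 bp), and AT3G19780 had 71.7% and 97.1% (448 bp). Apart from the 267 bp interval of GC1, all of these were over 50% in Ler.

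Further marked introns with a shared end lay in genes of known function. TRXF1, a chloroplast thioredoxin that activates Calvin cycle enzymes in the light, had 70.1% in Col and 90.1% in Ler (585 bp). AAO3, which catalyses the last step of abscisic acid synthesis, had 75.4% and 87.4% for a 351 bp intron with GC-AG ends. PLC2, a phospholipase C, had 36.5% and 60% (279 bp). These 3 were higher in Ler. An annotated exon lies inside the TRXF1 and PLC2 intervals. Events in which these junctions skip an exon had inclusion levels of 99.5% and 99.8% in TRXF1, and 98.9% and 99.2% in PLC2. The marked junctions were thus the minor ones in both genes. The acceptor event of AAO3 that shares its donor, a step of 100 bases, was marked higher in Ler with 67.4% and 81.5%. By that event the 351 bp junction of AAO3 was the minor one in both ecotypes.

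In the other direction, LTO1, a thiol oxidoreductase of the thylakoid membrane, had 97.8% in Col and 80% in Ler (322 bp). The acceptor event of LTO1 that shares its donor, a step of 42 bases, was listed at 99.7% and 97.1%. The 322 bp junction was thus the minor one in both ecotypes. VPS46.1, a subunit of the membrane-remodelling ESCRT machinery, had 14.3% and 3.85% (332 bp). Overlapping intervals of 397 and 400 bp in AT2G17033, a pentatricopeptide repeat gene, had 16.2% and 2.27%, and 16.5% and 2.50%. The AT2G17033 acceptors are shared and the donors lie 3 bases apart, so these marks describe nearly the same intron. An annotated exon lies inside both of these AT2G17033 intervals.

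**Figure D5:**
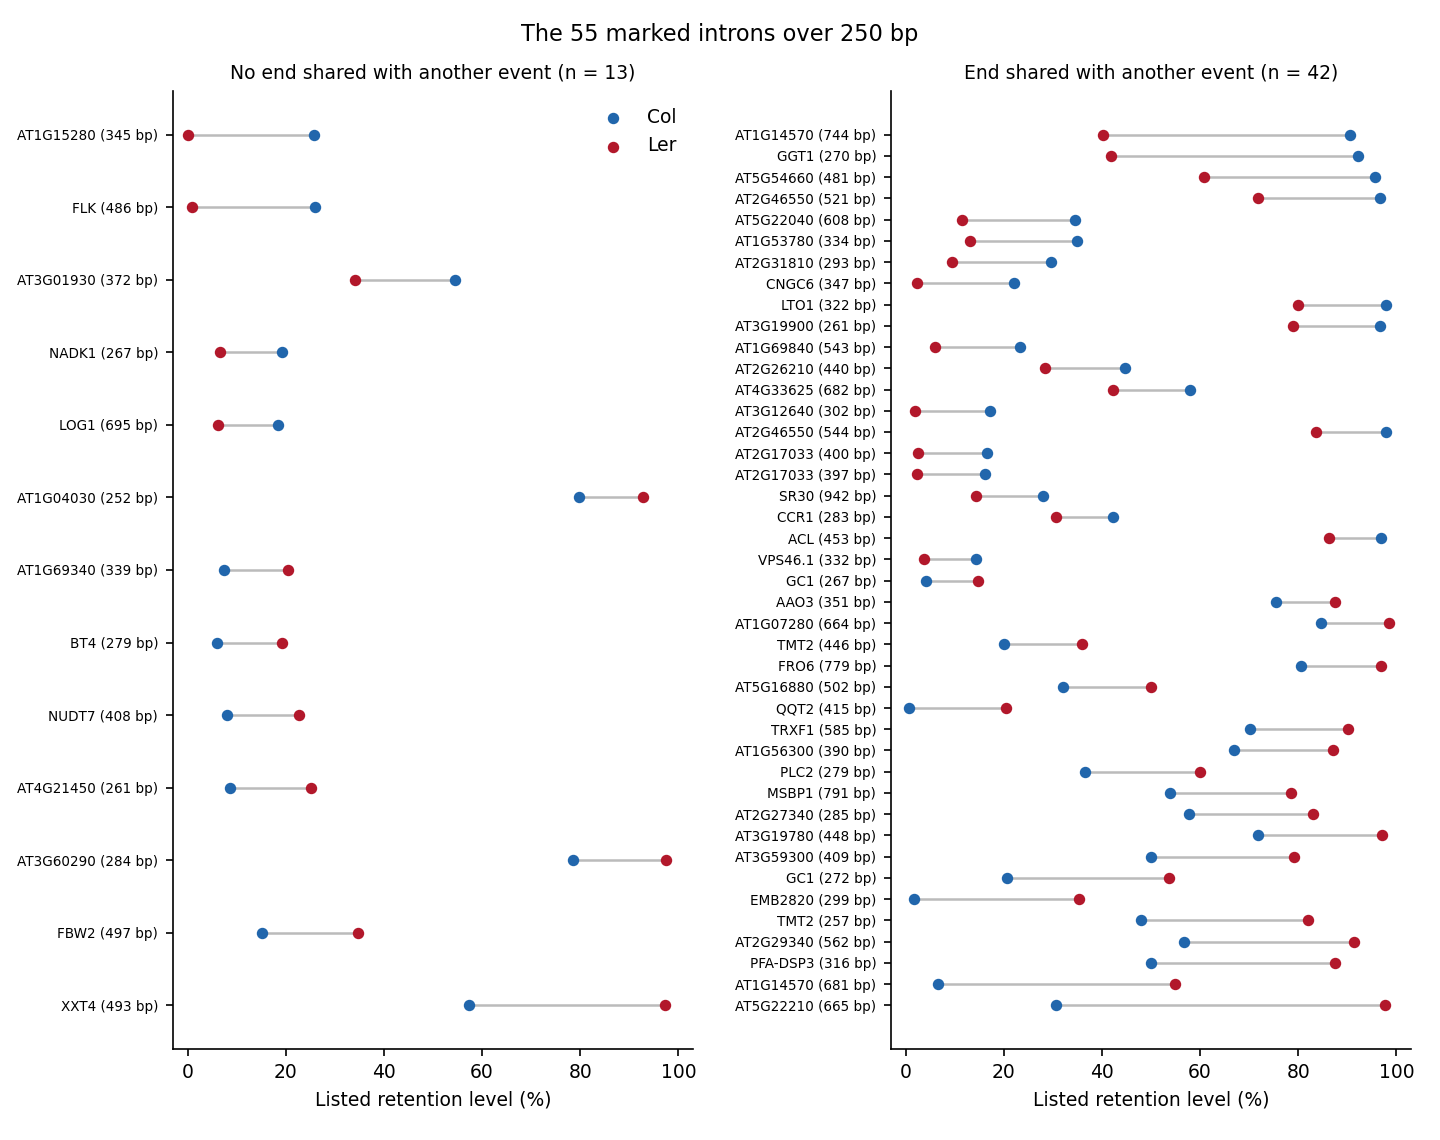
Listed retention level in percent (horizontal axis) of each of the 55 marked introns over 250 bp in Col and Ler, joined by a line, with the 13 that share no end with another event on the left and the 42 that do on the right. The gaps run from 10.4 to 66.9 points, and AT1G15280 and FLK reach 0 and 0.851% in Ler.

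The longest marked introns were SR30 (942 bp), MSBP1 (791 bp) and FRO6 (779 bp). SR30 had 28.1% in Col and 14.3% in Ler. MSBP1, a membrane steroid-binding protein, had 53.9% and 78.5%, and FRO6, a ferric reductase of the leaf plasma membrane, had 80.5% and 96.8%. An acceptor event of MSBP1 with a step of 17 bases was listed at 96.5% and 98.7%. An event in which the 779 bp junction of FRO6 skips an exon was listed at 99.7% and 99.9%. In both events the marked junction was the minor one. Among all long introns the longest were a 3412 bp interval in AT5G40450 (99.6% and 97.0%), a 2946 bp interval in AT3G61690 (66.7% and 50%) and a 2898 bp interval in AT3G56410 (83.3% and 87.4%), none of them marked. The AT5G40450 interval has AT-AC ends and 30 identical bases at both edges. An annotated exon lies inside it, and neither of its forms is annotated. The members nearest to 50% in both ecotypes were in PHOS32 (1090 bp, 50% and 50%), AT2G42170 of the actin family (405 bp, 51.6% and 50%) and AT5G61310, a cytochrome c oxidase subunit (1034 bp, 50% and 48%). Just inside the length limit, 251 bp introns of AT1G52360 and LPAT4 had 11% and 8.53%, and 22.7% and 34.0%. Just outside it, 250 bp introns of AT1G64710 and LARP6b had 90.6% and 97.6%, and 53.6% and 88.9%.

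Splicing regulators were described from lists of genes. Of 20 SR protein genes, 17 had events and 11 had long retained introns, 18 in all, and 1 of the 18 was marked, a share of 5.56% beside 7.46% of all events. Median levels of the 18 were 36.1% in Col and 35.9% in Ler, below the 50.7% and 53.3% of all long introns. The marked 942 bp intron of SR30 shares its donor with a 604 bp interval, which had 4.74% in Col and 11.3% in Ler without a mark. The acceptor event of SR30 between these intervals, a step of 338 bases, was marked higher in Col with 48.8% and 36.7%. The other SR introns with the widest gaps, SR34 (307 bp, 20% and 37.7%), RS2Z33 (406 bp, 41.0% and 26.7%) and RS41 (375 bp, 42.2% and 51.3%), carried no mark.

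Among 18 other splicing factor and RNA-binding protein genes, 8 had 13 long introns, and 1 was marked (7.69%, beside 7.46% of all events). This was the 283 bp first intron of CCR1 (also known as GRP8), a clock-regulated RNA-binding protein with a glycine-rich tail, at 42.2% in Col and 30.7% in Ler with q = 8.97e-55 in the authors' deposited table. Its reading frame meets a stop at base 46. The CCR1 intron shares its acceptor with a 125 bp interval, which had 70.1% and 73.2% without a mark. The donor event between these intervals, a step of 158 bases, had 21.8% in Col and 12.8% in Ler. It carried no mark, with q = 2.38e-42 in the authors' deposited table. AtRZ-1c, another glycine-rich RNA-binding protein, had 25% and 52% (381 bp), 53.8% and 72.2% (394 bp) and 26.4% and 35.4% (1923 bp), none marked. PTB2, a polypyrimidine tract-binding protein, had 73.7% and 91.7% (359 bp) and was also not marked.

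Clock, flowering and light genes contributed few long introns. Their counts are too small to be read against the 7.46% of all events that were marked. Of 19 clock genes 3 had 5 members and 0 were marked. TOC1 had 12.5% in Col and 9.79% in Ler (317 bp) and 84.8% and 83.6% (304 bp), RVE2 had 52% and 65.8% (460 bp), and JMJD5 had 59.6% and 48.2% (407 bp). Of 19 flowering-time genes 2 had a member each, the marked FLK intron and a 798 bp intron of FPA on the 3′ UTR side at 11.4% and 12.9%. FPA, like FLK, is an RNA-binding protein that promotes flowering. Of 11 light signalling genes 2 had 3 members with 0 marked, CRY1 (263 bp, 94.3% and 82.5%) and PIF4 (274 bp, 77.8% and 73.1%, and 398 bp, 97.1% and 98.1%). None of 5 genes for intronic heterochromatin and none of 14 actin, polyubiquitin, EF1A and profilin genes with known leader introns had an event in the table.

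Long introns of 1 gene often formed nested pairs. There were 312 pairs in 186 genes in which both intervals were members and shared exactly 1 end, 183 sharing the donor and 129 the acceptor. The free ends lay a median of 55 bases apart, and 20 bases or fewer in 100 pairs. Levels within a pair differed by a median of 31.5 points in Col and by more than 50 points in 101 pairs, and 278 of the 312 kept the same order in Ler. At least 1 interval was marked in 36 pairs and both in 5.

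Other genes lay wholly inside 13 of the long introns, and 0 of the 13 were marked, a count too small to set against the 4.96% of all long introns. The DCL1 intron printed above was listed at 28.8% in Col and 27.0% in Ler. Intervals of 867 and 871 bp in AT5G10946 contain the gene of miR156d and had 66.7% and 53.3%, and 67.7% and 61.5%. RS31a, an SR protein gene, had 53.2% and 54.3% for a 705 bp intron with a long noncoding RNA gene inside. UBA1A, which encodes an RNA-binding protein, had 63.2% and 86.7% for an 1148 bp interval around a protein-coding gene. Because read strandedness is not given, reads of the inner gene and of the retained intron cannot be told apart in these intervals.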

How the data were processed

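RNA-seq of 2 samples each of Col and Ler was processed by the submitters, whose processing notes name TopHat and TAIR10 without versions. The authors deposited an inclusion level per ecotype as a fraction of 1, per the file headers, and a text cell with their q value and a direction sign. The sources used here do not state how samples were pooled, the read minimum, the test, the Ler assembly or strandedness. No values per sample were used, so no test over samples was made.

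Levels were multiplied by 100. Interval lengths came from the event coordinates. Names, coding spans, introns and sequences came from RefSeq TAIR10.1, in which 791 of 794 genes matched. A segment before the start codon counts as 5′ UTR side. Marked means that the authors gave a direction. Named were the 10 widest marked differences in each direction, at most 4 introns per list from 7 gene lists, the 3 longest members, the 3 longest marked, the 3 nearest to 50% and 2 on either side of the length limit. Other marked introns, those without a stop and genes inside introns were added after the values were seen. Members and lists were chosen with earlier results of these data known. Python 3.11.15, pandas 2.3.3, SciPy 1.17.1 and matplotlib 3.10.9 were used. The interval computation was tested on simulated data.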

Additional observations from a re-analysis of the deposited data

How the results depend on the processing

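The share of marked long introns was 4.96% (55 introns). It was 9.02% with q under 0.05 alone in the authors' deposited table (100 introns), 2.25% with a mark and at least 20 points, and 3.66% without introns that share an end. The share over 50% in Col was 50.1%. It was 55.9% above 500 bp, 28.2% for annotated introns only, 46.4% without those containing an exon and 38% without shared ends. The share on the 5′ UTR side was 16.1%, against 18.9% above 500 bp, 21.9% for annotated introns only, 9.3% without shared ends and 12% without genes within 500 bp of another gene. Each of these alternatives keeps fewer introns or another rule for a mark. The remaining alternatives moved these values by less than their counting interval, and the share of marked introns higher in Col, 47.3%, stayed between 38.5% and 52.5%. No paired analysis was possible because the table holds 1 pooled value per ecotype, and for the same reason no sample could be left out. Depth is unknown, so an unmarked difference is not shown to be absent.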

Other observations

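Large differences without a mark were present among the long introns. Of the 99 that differed by more than 20 points, 74 were unmarked. Among all 14133 events, 1383 differed by more than 20 points (9.79%, beside 8.93% of the long introns), and 790 of the 1383 were unmarked. AOP3, a dioxygenase of glucosinolate synthesis, was listed at 0 in Col and 81.1% in Ler for a 275 bp interval, with q = 1 in the authors' deposited table. SCA3, an organellar RNA polymerase, had 65.9% in Col and was listed at 0 in Ler (390 bp), also with q = 1 in the authors' deposited table. AT3G05570 had 12.9% and 88.9% for a stand-alone 637 bp leader intron, and AT5G53010 had 94.2% and 22.2% (266 bp). In the authors' deposited table these last had q = 2.52e-05 and q = 2.08e-07 and no direction. They belong to 10 of the 1109 long introns with q under 0.05 and at least 10 points that the authors' deposited table leaves without a direction. Among all 14133 events there were 135 of this kind.

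Repeated bases or ends other than GT-AG were present at the edges of some intervals. In 11 members, in 9 genes, 8 or more identical bases stood at both edges, so the position of the junction can slide along the repeat, and their median levels were 99% in Col and 98.3% in Ler with 0 marked. NRPB1, the largest subunit of RNA polymerase II, had such an interval of 527 bp (99.8% and 99.7%). Its edges are shown with the 15 repeated bases in capitals, from RefSeq TAIR10.1.
NRPB1 donor edge, chr4:16961973-16962002, minus strand: tcgccaagctaCAGCCCGACATCTCCgagc
NRPB1 acceptor edge, chr4:16961446-16961475, minus strand: aatttactctgCAGCCCGACATCTCCatca
The 7 AT-AC intervals had a median of 99.7% in both ecotypes. Of these 7, 4 had 8 or more repeated bases, among them the 3412 bp interval of AT5G40450, the longest member. The 26 CT-AC intervals, which read GT-AG on the opposite strand, had medians of 83.1% and 81.3%, and 1 of them was marked.

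Short motifs known from plant leader introns were counted in the first 250 bases of the 680 members that equal an annotated intron. CGATT was present on the intron's strand in 160 (23.5%), against 20.7% of all 22385 annotated introns over 250 bp. On the 5′ UTR side the shares were 38.9% and 39.4%, and in the coding span 18.6% and 17.3%. TTNGATNTG was present in 8.68% and 8.93%. On the other strand CGATT was present in 15.4% and 14.1%, and TTNGATNTG in 2.06% and 2.21%. A stretch can match both motifs.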
